A study of Mus musculus with 6 samples.

Results

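Transcripts of 46 genes of the cell cycle and of DNA replication were measured by RNA-seq in mouse liver tumors with and without Prmt3 in the hepatocytes. Prmt3 encodes a protein arginine methyltransferase. The genes were picked by symbol from a table of 34745 genes, and 46 of 46 were listed and passed the filter on low counts, which left 13892 genes to test. By role, 14 of them serve DNA replication (Mcm2, Mcm3, Mcm4, Mcm5, Mcm6, Mcm7, Cdc6, Cdt1, Gins2, Pcna, Rrm1, Rrm2, Tyms and Tk1). Another 4 govern the passage from G1 into S phase (Ccne1, Ccne2, E2f1 and E2f8). The other 28 act in G2 and mitosis (Mki67, Top2a, Ccnb1, Ccnb2, Ccna2, Cdk1, Cdc20, Cdca3, Cdca8, Aurka, Aurkb, Plk1, Bub1, Bub1b, Birc5, Kif11, Kif20a, Kif23, Nusap1, Ube2c, Tpx2, Cenpa, Cenpe, Cenpf, Prc1, Foxm1, Anln and Melk).

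The control tumors came from Prmt3f/f mice, which carry loxP-flanked Prmt3 and are labelled WT. The Prmt3LKO tumors, labelled Prmt3-KO, came from Prmt3f/f mice that also carry Alb-Cre, a recombinase driven by the albumin promoter. This promoter is active in hepatocytes, so that immune and vascular cells of the tumor keep the gene. All mice were male. Mice of both genotypes received diethylnitrosamine (DEN), a mutagen activated in the liver, at 25 mg/kg at 2 weeks of age. From 6 weeks of age they received 10% CCl4 in oil, which injures hepatocytes, at 0.5 ml/kg 2 times a week, and tumors were taken at 26 weeks. There were 3 tumors per genotype, Prmt3f/f replicates 7, 66 and 71 and Prmt3LKO replicates 92, 93 and 94, and values are given in that order throughout. Nothing in the labels says whether the tumors of a group came from separate mice. The p-values therefore set the difference between genotypes against the spread between these tumors, and may not hold for mice. Each tumor had 18440244 to 27976598 counted reads. Levels are given in CPM, the reads of a gene scaled to the TMM-corrected total of the tumor. Prmt3 was at 6.60, 8.49 and 10.2 CPM in the Prmt3f/f tumors and 2.80, 2.03 and 3.82 CPM in the Prmt3LKO tumors, without overlap, with a log2 fold change of -1.55 (SE 0.29, edgeR adjusted p 0.592). The tissue label was checked on 9 hepatocyte markers, which summed to 142811 to 206246 CPM in each tumor.

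In a dividing cell the Mcm2 to Mcm7 proteins are loaded on DNA by Cdc6 and Cdt1 in G1 and form the core of the helicase that opens the double helix in S phase. Genes for these proteins and for the supply of nucleotides are switched on at the G1/S boundary by E2F factors. Genes for the spindle, the kinetochore and cytokinesis are switched on later, in G2, by complexes that hold B-Myb and Foxm1. Hepatocytes of the adult liver rarely divide, whereas cells of a liver tumor, and lymphocytes within it, can. In a bulk sample fewer dividing cells and less RNA per dividing cell cannot be told apart.

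No member differed between the genotypes past the limits of an adjusted p under 0.05 and a fold of 2 or 0.5 (edgeR quasi-likelihood test on counts, adjusted over all genes tested). Over all 13892 genes 0% were called lower and 0% were called higher in Prmt3LKO tumors, and the smallest adjusted p was 0.0879. At an unadjusted p under 0.05, 2 of 46 members, Mcm4 and Mcm7, were lower in Prmt3LKO tumors, a share close to the 4.37% of all genes. By the same measure 0 of 46 members were higher, beside 2.2% of all genes. DESeq2 and limma-voom each called 0 members and gave the same 2 genes at an unadjusted p under 0.05. All 3 Prmt3LKO tumors lay below all 3 Prmt3f/f tumors for 4 of 46 members (Mcm4, Mcm6, Mcm7 and E2f8), beside 6.6% of all genes. They lay above for 0 of 46 members, beside 5.56% of all genes. The median log2 fold change was -0.13 over the 14 replication members and -0.080 over the 28 mitotic members, and 0.00037 over all genes tested.

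The larger differences among these genes were between tumors of one genotype. Prmt3f/f replicate 7 was the highest Prmt3f/f tumor for 28 of 28 mitotic members, and Prmt3LKO replicate 93 was the highest Prmt3LKO tumor for the same 28 of 28. Both tumors led their group in this way for 17.8% of all genes tested. They were singled out after the values had been seen, and the mitotic genes are transcribed in the same phase of the cycle, so they are not independent observations. Among the replication members both tumors led their group for 8 of 14, and among the G1/S regulators for 1 of 4. Prmt3f/f replicate 71 was the lowest Prmt3f/f tumor for 26 of 28 mitotic members. In the Prmt3LKO group, replicate 92 was the lowest for 19 and replicate 94 for 9 of the 28.

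The mean log2 level of the mitotic members, taken relative to the mean of the 6 tumors, was 0.63, -0.075 and -0.45 in the Prmt3f/f tumors and -0.44, 0.54 and -0.19 in the Prmt3LKO tumors. Summed over the 28 genes, this was 213, 130 and 101 CPM against 105, 199.9 and 117 CPM. One tumor of each genotype was thus high and the other tumors low, and the groups overlapped. The replication members followed the same order within a narrower range, at 0.28, 0.018 and -0.15 on the same log2 scale in the Prmt3f/f tumors and -0.14, 0.073 and -0.077 in the Prmt3LKO tumors. Their difference, mitotic less replication, was 0.35 in Prmt3f/f replicate 7 and 0.46 in Prmt3LKO replicate 93, and lay between -0.31 and -0.094 in the other tumors. Single mitotic genes had a median SD of 0.54 log2 units within the groups. The median was 0.26 for replication members and 0.28 for all genes tested. Between the highest and the lowest of the 6 tumors the median fold was 2.40 for mitotic members, 1.91 for replication members and 1.71 for all genes.

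**Figure D1:**
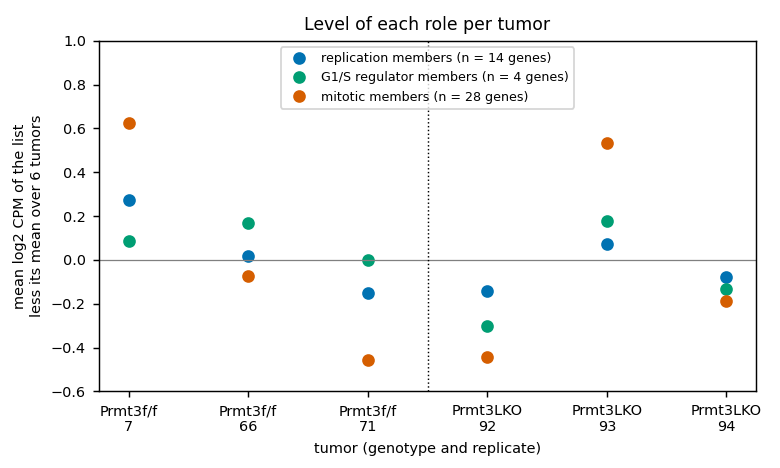
Mean log2 CPM of the members of each role, less the mean of the 6 tumors (vertical axis, log2 units), in each tumor (horizontal axis). The mitotic members stand at 0.63 in Prmt3f/f replicate 7 and 0.54 in Prmt3LKO replicate 93 and below 0 in the other tumors, and the replication members spread less.

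Total reads were close in these tumors, at 21040087 in Prmt3f/f replicate 7 and 21299186 in Prmt3LKO replicate 93, inside the range of the other tumors. Their TMM scaling factors, which correct for library composition, were 1.03 and 1.04, at the upper end of the range of 0.949 to 1.04. T and NK cell markers moved in part with the mitotic genes: both tumors led their group for 7 of the 11 tested, beside 17.8% of all genes. Both led for 1 of 8 B and plasma cell markers, 3 of 11 myeloid markers and 1 of 7 cholangiocyte markers. With the untested Ncr1, the 12 T and NK cell markers summed to 44.9, 37.4 and 38.0 CPM in the Prmt3f/f tumors. In the Prmt3LKO tumors the sums were 9.14, 25.1 and 19.3 CPM, and no marker was at 0 counts in any tumor. Prmt3LKO replicate 93 thus had a lower T and NK cell level than Prmt3f/f replicates 66 and 71, and a higher mitotic level. B and plasma cell markers, 8 genes, summed to 116, 279.9 and 103 against 26.5, 88.8 and 29.5 CPM. Myeloid markers, 11 genes, summed to 850, 1089 and 505 against 439, 388 and 483 CPM, so that replicate 93 was the lowest tumor there. Cholangiocyte markers, 7 genes, summed to 4345, 1211 and 549 against 583, 540 and 379.6 CPM. A sum gives most weight to the most abundant genes. On the mean log2 scale the cholangiocyte markers were at 0.68, 0.51 and -0.23 against -0.27, -0.59 and -0.096. Prmt3f/f replicates 7 and 66 were thus both high there, and Prmt3LKO replicate 93 was the lowest tumor. On that scale myeloid markers were at 0.76, 0.63 and 0.042 against -0.46, -0.59 and -0.37. B and plasma cell markers were at 0.49, 0.53 and 0.35 against -0.83, 0.22 and -0.76. The part of immune and biliary cells in the mitotic levels was not tested.

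**Figure D2:**
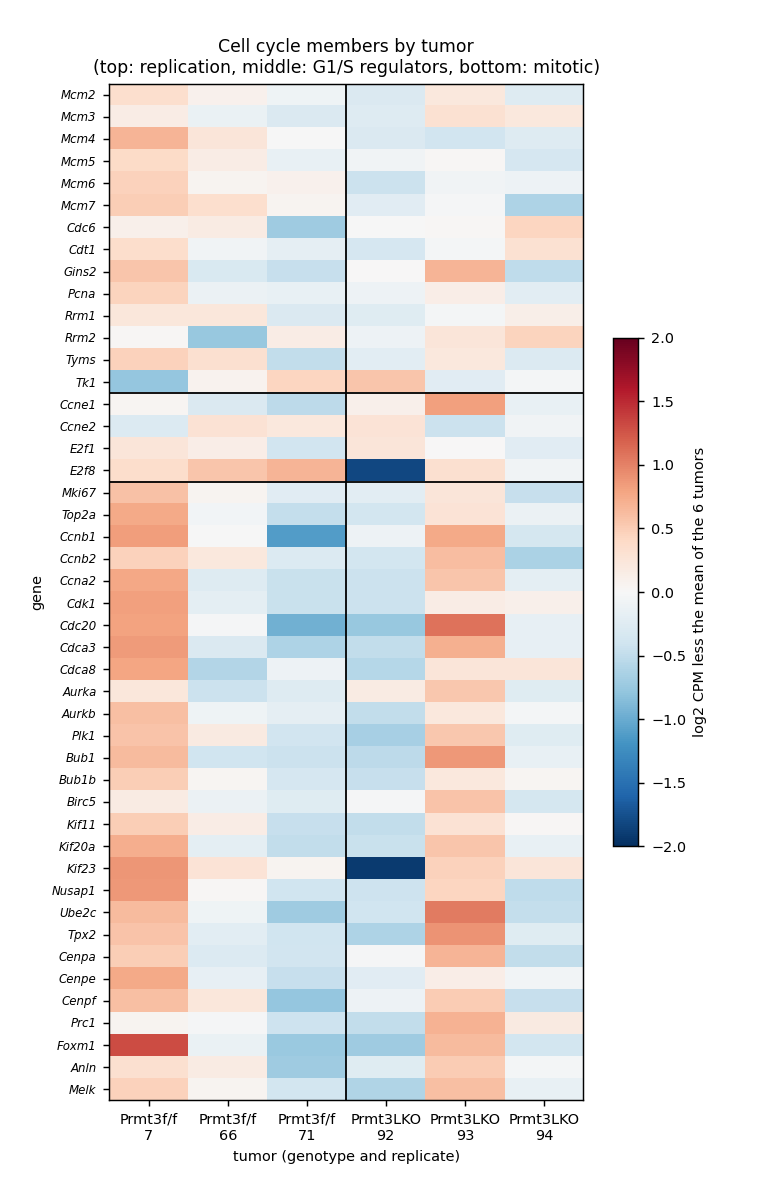
Log2 CPM of each of the 46 members (rows) in each tumor (columns), less the gene's mean over the 6 tumors, from blue (low) to red (high). Prmt3f/f replicate 7 and Prmt3LKO replicate 93 are red for mitotic members, E2f8 and Kif23 are dark blue in Prmt3LKO replicate 92, and Tk1 is blue in Prmt3f/f replicate 7.

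Promoters were read from RefSeq (GRCm38.p6) for 38 of the 46 members, since the mitotic members moved together from tumor to tumor. Each window ran from 250 bases before to 50 bases after the start of the gene, and 40 windows were matched. Mcm4, Gins2, Ccne2, Ccna2, Aurkb, Kif20a, Tpx2 and Foxm1 were not matched. On both strands 3 kinds of motif were sought: the CCAAT box (CCAAT, or ATTGG when read on the other strand), which NF-Y binds, the CHR element (TTTGAA, or TTCAAA), which cell cycle complexes of the MuvB core bind, and an E2F site. The last was any of the 8-base words TTTGGCGC, TTTCCCGC, TTTGCCGC and TTTCGCGC and their reverse complements. A CCAAT box lay in 20 of 24 windows of mitotic members (83.3%), 9 of 13 of replication members (69.2%) and 37.4% of all 32851 windows in the table. The CHR element lay in 18 of 24 mitotic windows (75%), 1 of 13 replication windows (7.69%) and 17.9% of all windows. An E2F site lay in 6 of 13 replication windows (46.2%), in 1 of 24 mitotic windows, that of Cdk1, and in 2.26% of all windows. A CCAAT box and a CHR element were both present in 17 of 24 mitotic windows, beside 6.95% of all windows. A match is a run of letters and not a measured binding site.

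The 170 bases before the start are shown for members of both kinds, 5′ to 3′ on the strand of the gene. In Mki67 (chr7:135716380-135716549, minus strand), Top2a (chr11:99024190-99024359, minus strand) and Kif11 (chr19:37376212-37376381, plus strand), which varied with the mitotic genes, and in the G1/S regulator E2f8 (chr7:48881597-48881766, minus strand), capitals mark the CCAAT boxes and CHR elements.
Mki67: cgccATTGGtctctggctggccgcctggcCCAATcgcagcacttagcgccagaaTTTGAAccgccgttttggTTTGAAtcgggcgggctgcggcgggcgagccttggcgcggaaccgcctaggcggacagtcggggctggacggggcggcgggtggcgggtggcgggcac
Top2a: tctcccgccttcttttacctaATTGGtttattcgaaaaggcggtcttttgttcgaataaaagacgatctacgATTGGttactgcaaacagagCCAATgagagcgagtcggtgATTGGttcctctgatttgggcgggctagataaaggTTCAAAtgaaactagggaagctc
Kif11: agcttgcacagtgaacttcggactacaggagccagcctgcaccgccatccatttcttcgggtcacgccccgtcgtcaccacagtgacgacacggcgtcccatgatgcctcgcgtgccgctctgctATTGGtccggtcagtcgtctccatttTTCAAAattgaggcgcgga
E2f8: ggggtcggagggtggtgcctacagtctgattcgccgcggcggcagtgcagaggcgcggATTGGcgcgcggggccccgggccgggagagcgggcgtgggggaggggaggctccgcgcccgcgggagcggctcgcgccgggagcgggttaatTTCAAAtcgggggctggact
In the helicase genes Mcm5 (chr8:75109339-75109508, plus strand) and Mcm6 (chr1:128359706-128359875, minus strand), whose windows hold CCAAT boxes but no CHR element, capitals mark only the E2F sites, of which the pair in Mcm5 and the first pair in Mcm6 overlap on opposite strands.
Mcm5: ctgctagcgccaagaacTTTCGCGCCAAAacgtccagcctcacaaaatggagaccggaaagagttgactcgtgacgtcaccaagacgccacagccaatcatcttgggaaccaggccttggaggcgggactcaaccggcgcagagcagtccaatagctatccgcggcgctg
Mcm6: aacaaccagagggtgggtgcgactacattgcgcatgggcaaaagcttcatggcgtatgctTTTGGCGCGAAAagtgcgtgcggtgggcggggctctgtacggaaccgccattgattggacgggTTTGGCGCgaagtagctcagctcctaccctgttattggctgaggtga
In Kif11 and E2f8 the CHR element begins 19 and 20 bases before the start, and in Top2a 23 bases before it. The E2F sites of Mcm5 begin 153 and 149 bases before the start.

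The helicase subunits held the members with the smallest p-values. Mcm4 (chr16:15623897-15637400 on GRCm38, gene bounds as deposited by the authors) was at 10.8, 7.98 and 6.68 CPM in the Prmt3f/f tumors and 5.49, 5.14 and 5.63 CPM in the Prmt3LKO tumors. The Prmt3LKO tumors lay within a narrow range below the lowest Prmt3f/f tumor, with means of 8.49 ± 2.11 and 5.42 ± 0.250 CPM (SD, n = 3 each). The log2 fold change was -0.65 (SE 0.22, edgeR unadjusted p 0.020, adjusted p 0.657). Mcm7 (chr5:138164583-138172422) was at 16.8, 15.02 and 12.4 CPM in the Prmt3f/f tumors and 10.2, 11.7 and 7.74 CPM in the Prmt3LKO tumors, with a log2 fold change of -0.58 (SE 0.21, edgeR unadjusted p 0.024, adjusted p 0.684). The groups did not overlap there either. Cops6 and Ap4m1 overlap Mcm7 on the other strand, and whether the counting used strand is not given in the sources used here, so reads of these genes may be shared. Mcm6, at 20.3, 15.4 and 15.6 CPM in the Prmt3f/f tumors and 10.97, 14.03 and 13.8 CPM in the Prmt3LKO tumors, was the third without overlap (log2 fold change -0.40, edgeR unadjusted p 0.058, adjusted p 0.769). For each of these 3 genes the exact two-sided permutation test over the 6 tumors gave p = 0.1, the smallest it can give.

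The other subunits overlapped between the genotypes. Mcm2 was at 15.9, 13.3 and 11.9 CPM in the Prmt3f/f tumors and 10.3, 14.6 and 10.6 CPM in the Prmt3LKO tumors. Mcm5 was at 11.2, 9.56 and 7.77 CPM in the Prmt3f/f tumors and 8.23, 8.71 and 6.79 CPM in the Prmt3LKO tumors. Mcm3 was at 10.7, 8.82 and 7.88 CPM in the Prmt3f/f tumors and 8.06, 11.95 and 11.2 CPM in the Prmt3LKO tumors, and unlike the other 5 it had a positive log2 fold change of 0.19, within its interval of -0.30 to 0.68. Over Mcm2 to Mcm7 the median log2 fold change was -0.33, with 5 of 6 below 0, and the 6 genes summed to 85.7, 70.1 and 62.3 CPM in the Prmt3f/f tumors and 53.2, 66.1 and 55.7 CPM in the Prmt3LKO tumors. With 1 tumor left out, the log2 fold changes of Mcm4 (-0.79 to -0.44) and Mcm7 (-0.72 to -0.43) stayed negative, while their unadjusted calls varied. Without Prmt3f/f replicate 7, the tumor highest for 6 of 6 of these genes among its group, 0 members were at an unadjusted p under 0.05. Without Prmt3f/f replicate 66 or Prmt3LKO replicate 92 only Mcm4 remained, without Prmt3LKO replicate 93 only Mcm7, without Prmt3f/f replicate 71 both, and without Prmt3LKO replicate 94 Mcm4 was joined by Ccne1, which was higher.

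The licensing factors Cdc6 and Cdt1 load the helicase. Cdc6 was at 1.29, 1.35 and 0.703 CPM in the Prmt3f/f tumors and 1.20, 1.22 and 1.66 CPM in the Prmt3LKO tumors, from 20 to 33 counts per tumor. Cdt1 was at 5.77, 4.29 and 3.97 CPM in the Prmt3f/f tumors and 3.54, 4.38 and 5.58 CPM in the Prmt3LKO tumors, and Gins2, a subunit of the GINS complex of the active helicase, at 3.88, 2.10 and 1.86 CPM in the Prmt3f/f tumors and 2.63, 4.24 and 1.81 CPM in the Prmt3LKO tumors. Gins2 was high in Prmt3f/f replicate 7 and Prmt3LKO replicate 93, as the mitotic genes were, whereas Cdc6 and Cdt1 were highest in replicate 94 of the Prmt3LKO tumors. Pcna, the sliding clamp of the DNA polymerases, was at 27.7, 18.9 and 18.4 CPM in the Prmt3f/f tumors and 18.97, 22.3 and 17.6 CPM in the Prmt3LKO tumors, with a log2 fold change of -0.14 (95% interval -0.61 to 0.33). Prmt3f/f replicate 7 was highest and Prmt3LKO replicate 93 next, and the other 4 tumors lay close together.

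Enzymes of deoxynucleotide supply did not share one order of tumors. Rrm1, the large subunit of ribonucleotide reductase, was at 16.2, 16.1 and 11.2 CPM in the Prmt3f/f tumors and 11.7, 13.4 and 14.9 CPM in the Prmt3LKO tumors. Rrm2, its small subunit, was at 14.4, 8.30 and 15.8 CPM in the Prmt3f/f tumors and 13.3, 16.7 and 19.4 CPM in the Prmt3LKO tumors, so that Prmt3f/f replicate 66 was low for Rrm2 and not for Rrm1. Tyms, thymidylate synthase, was at 9.74, 8.77 and 4.96 CPM in the Prmt3f/f tumors and 6.06, 8.17 and 5.78 CPM in the Prmt3LKO tumors, with Prmt3f/f replicate 71 lowest. Tk1, thymidine kinase of the cytosol, was at 6.001, 10.9 and 13.96 CPM in the Prmt3f/f tumors and 15.3, 8.84 and 10.1 CPM in the Prmt3LKO tumors. Its lowest value of the 6 was in Prmt3f/f replicate 7, and in the Prmt3LKO group its lowest was in replicate 93, the reverse of the mitotic genes. On the other strand, Gm20708 (3181 counts over the 6 tumors) spans Tk1 and Afmid (3876 counts) overlaps it. Whether they share reads, and whether this bears on the order of tumors for Tk1, was not tested. The log2 fold changes were -0.12 for Rrm1, 0.36 for Rrm2, -0.23 for Tyms and 0.15 for Tk1, each with a 95% interval that includes 0.

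Of the G1/S regulators, Ccne1 (cyclin E1, which activates Cdk2 before S phase) was at 11.1, 8.82 and 7.49 CPM in the Prmt3f/f tumors and 11.6, 19.2 and 9.75 CPM in the Prmt3LKO tumors. Prmt3LKO replicate 93 was the highest tumor, and the log2 fold change was 0.57 (SE 0.28, edgeR unadjusted p 0.082, adjusted p 0.784). Without that tumor it was 0.23. Ccne2, cyclin E2, was at 1.43, 2.15 and 2.04 CPM in the Prmt3f/f tumors and 2.11, 1.26 and 1.66 CPM in the Prmt3LKO tumors, with Prmt3f/f replicate 7 and Prmt3LKO replicate 93 the lowest tumors of their groups. E2f1, an activating E2F factor, was at 6.09, 5.65 and 3.94 CPM in the Prmt3f/f tumors and 6.12, 5.19 and 4.37 CPM in the Prmt3LKO tumors, with group means of 5.23 ± 1.14 and 5.23 ± 0.872 CPM (SD, n = 3 each). E2f8, an E2F factor that represses transcription, was at 1.85, 2.15 and 2.36 CPM in the Prmt3f/f tumors and 0.343, 1.80 and 1.36 CPM in the Prmt3LKO tumors. The groups did not overlap, but the lowest value rested on 6 reads in Prmt3LKO replicate 92 and the log2 fold change was -0.84 (SE 0.53, edgeR unadjusted p 0.15, adjusted p 0.87). Gm2788 overlaps E2f8. Without Prmt3LKO replicate 92 the log2 fold change of E2f8 was -0.42.

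**Figure D3:**
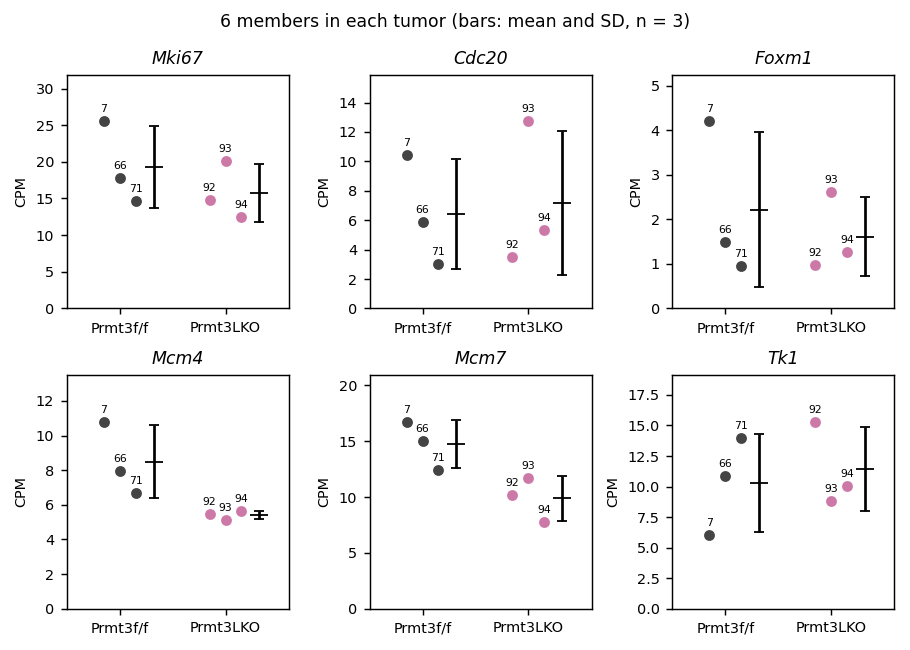
CPM (vertical axis, linear from 0) of 6 members in each tumor (points, with the replicate number) by genotype, with the mean and SD of the 3 tumors beside the points. Mki67, Cdc20 and Foxm1 are highest in replicates 7 and 93 of their groups, Mcm4 and Mcm7 do not overlap between genotypes, and Tk1 is lowest in replicates 7 and 93.

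Among the mitotic members none differed between the genotypes at an unadjusted p under 0.05, and the smallest p was that of Mki67. Mki67 (chr7:135689788-135716379), which encodes the proliferation marker Ki-67, was at 25.5, 17.8 and 14.6 CPM in the Prmt3f/f tumors and 14.8, 20.2 and 12.4 CPM in the Prmt3LKO tumors. The group means were 19.3 ± 5.60 and 15.8 ± 3.97 CPM (SD, n = 3 each), and the log2 fold change was -0.29 (SE 0.26, 95% interval -0.90 to 0.32, edgeR unadjusted p 0.30, adjusted p 0.929). The interval runs from a value near a 2-fold lower level to a somewhat higher one. Without Prmt3f/f replicate 7 the log2 fold change was -0.047, and without Prmt3LKO replicate 93 it was -0.50. Top2a, the topoisomerase that untangles chromosomes, was at 18.003, 10.2 and 7.56 CPM in the Prmt3f/f tumors and 8.17, 12.8 and 9.75 CPM in the Prmt3LKO tumors, with a log2 fold change of -0.21 that was 0.20 without Prmt3f/f replicate 7.

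The cyclins and kinases of mitotic entry were highest in replicates 7 and 93 of their groups. Ccnb1, cyclin B1, was at 4.39, 2.38 and 1.05 CPM in the Prmt3f/f tumors and 2.23, 4.11 and 1.86 CPM in the Prmt3LKO tumors. Ccnb2, cyclin B2, was at 9.69, 8.07 and 5.77 against 5.37, 10.7 and 4.47 CPM. Ccna2, cyclin A2, which acts in S phase and G2, was at 13.3, 6.48 and 5.73 against 5.77, 11.5 and 6.84 CPM. Each of these cyclins was highest in replicate 7 or replicate 93 among all 6 tumors. Cdk1, the kinase they activate, was at 12.3, 6.02 and 5.03 against 5.09, 7.62 and 7.44 CPM, and here Prmt3LKO replicates 93 and 94 were nearly level. Plk1, a kinase of centrosomes and kinetochores, was at 6.46, 4.90 and 3.27 against 2.69, 6.27 and 3.62 CPM. Cdca3, a factor of mitotic entry, was at 13.8, 6.20 and 4.89 against 5.37, 12.4 and 6.79 CPM. Its log2 fold change was -0.0095, with a 95% interval of -1.07 to 1.05, so that the means were nearly equal while single tumors of one genotype differed 2.81-fold.

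Genes of anaphase onset and of the spindle checkpoint spread widely. Cdc20, which activates the anaphase-promoting complex, was at 10.4, 5.88 and 3.02 CPM in the Prmt3f/f tumors and 3.49, 12.7 and 5.33 CPM in the Prmt3LKO tumors. Ube2c, the ubiquitin-conjugating enzyme of that complex, was at 7.94, 4.81 and 3.06 against 3.83, 10.6 and 3.62 CPM. The checkpoint kinase Bub1 was at 2.68, 1.26 and 1.23 against 1.14, 3.16 and 1.51 CPM. In these 3 genes Prmt3LKO replicate 93 was the highest of the 6 tumors. Bub1b, the checkpoint protein BubR1, spread less, at 4.15, 3.03 and 2.32 against 2.11, 3.43 and 3.02 CPM. Elovl1 overlaps Cdc20. Of all members, 15 have an overlapping gene, among them Gins2 (Gse1), Ccne2 (Ints8), Kif20a (Cdc23) and Ccna2 (Exosc9), and whether they share reads was not tested.

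The chromosomal passenger complex corrects faulty attachments of chromosomes, and 3 of its subunits are among the members. Aurkb, its kinase, was at 3.28, 2.01 and 1.86 CPM in the Prmt3f/f tumors and 1.49, 2.48 and 2.06 CPM in the Prmt3LKO tumors. Birc5 (survivin) was at 5.22, 4.29 and 3.94 against 4.57, 6.95 and 3.62 CPM, and Cdca8 (borealin) at 4.39, 1.63 and 2.32 against 1.66, 2.98 and 2.97 CPM. For Cdca8 Prmt3LKO replicates 93 and 94 were nearly level, and for Birc5 Prmt3LKO replicate 93 was the highest of all. Aurka, the kinase of spindle poles, was at 4.06, 2.57 and 2.88 against 3.89, 5.10 and 2.92 CPM and Tpx2, which activates it, at 7.48, 4.29 and 3.76 against 3.20, 9.34 and 4.22 CPM. Aurka had a log2 fold change of 0.33 (95% interval -0.38 to 1.03), one of the 10 above 0 among the 28 mitotic members, and it was 0.10 without Prmt3LKO replicate 93.

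Among motors and cytokinesis proteins, Kif11, which pushes the spindle poles apart, was at 6.001, 4.67 and 3.06 CPM in the Prmt3f/f tumors and 2.97, 5.19 and 4.27 CPM in the Prmt3LKO tumors. Kif20a, a kinesin of the central spindle, was at 9.65, 5.09 and 4.11 against 4.23, 8.62 and 5.23 CPM. Kif23, another kinesin of the central spindle, was at 3.74, 2.43 and 2.07 against 0.457, 2.75 and 2.36 CPM. The value of Kif23 in Prmt3LKO replicate 92 rested on 8 reads, and it was 8.18-fold below that of Prmt3f/f replicate 7, the widest range of any mitotic member. Prc1, which bundles microtubules at the midzone, was at 4.94, 4.67 and 3.55 against 3.37, 7.76 and 5.38 CPM. It had the highest log2 fold change of the mitotic members, 0.33 (95% interval -0.42 to 1.08), which was 0.0023 without Prmt3LKO replicate 93. Rccd1, on the other strand, spans Prc1, and whether they share reads was not tested. Anln (anillin, of the cleavage furrow) was at 3.83, 3.45 and 1.83 against 2.57, 4.38 and 2.97 CPM, and Nusap1, which stabilizes spindle microtubules, at 5.49, 3.03 and 2.25 against 2.23, 4.06 and 2.06 CPM. Replicate 7 and replicate 93 led their groups in all 6.

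At the centromere, Cenpa, the histone H3 variant that marks it, was at 11.96, 6.998 and 6.43 CPM in the Prmt3f/f tumors and 8.29, 13.7 and 5.98 CPM in the Prmt3LKO tumors. Cenpe, a kinetochore motor, was at 3.97, 2.05 and 1.65 against 1.94, 2.53 and 2.21 CPM, and Cenpf, a kinetochore protein, at 3.88, 2.99 and 1.44 against 2.34, 3.65 and 1.81 CPM. Cenpe was high in Prmt3f/f replicate 7 and nearly level among the Prmt3LKO tumors. Foxm1, the transcription factor of the G2 program, was at 4.20, 1.49 and 0.949 against 0.972, 2.62 and 1.26 CPM. Its range within the Prmt3f/f group was 4.42-fold, its log2 fold change was -0.44 (SE 0.63), and without Prmt3f/f replicate 7 it was 0.41. Melk, a kinase of dividing cells, was at 2.12, 1.59 and 1.16 against 0.972, 2.35 and 1.36 CPM.

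**Figure D4:**
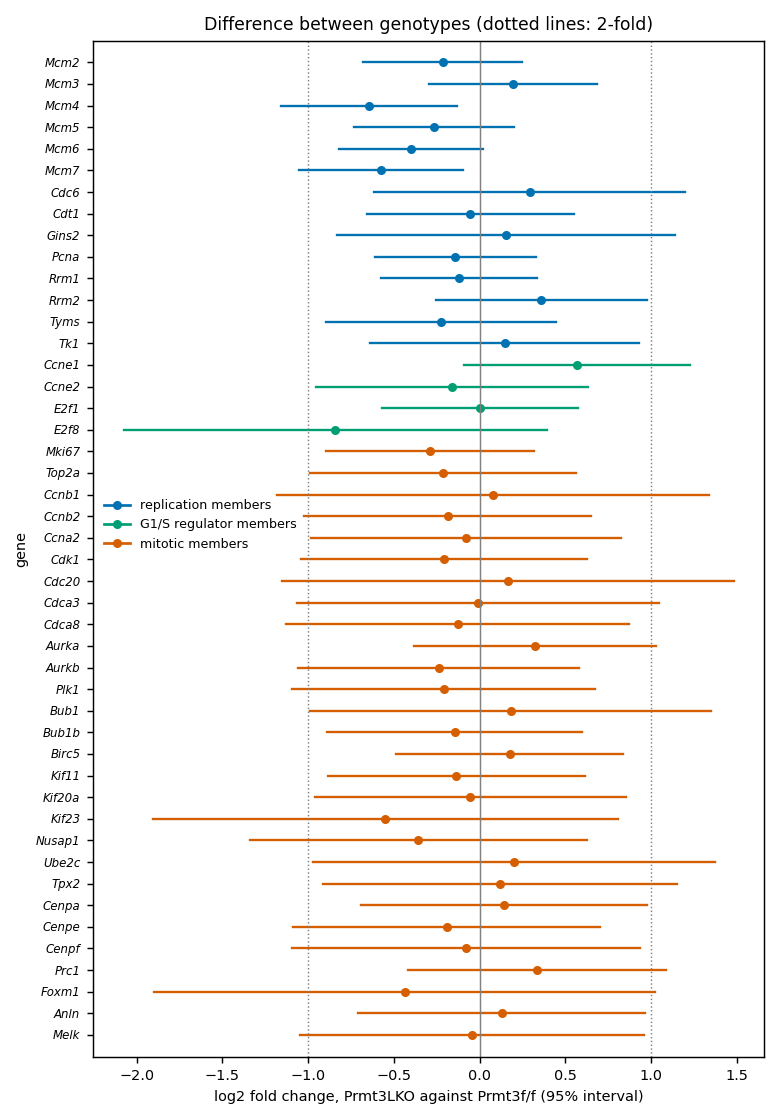
Log2 fold change of each member, Prmt3LKO against Prmt3f/f (horizontal axis; points, with lines for the 95% interval of the edgeR fit), by role, with dotted lines at a fold of 2 in either direction. The intervals of Mcm4 and Mcm7 lie below 0, the other 44 include 0, and those of the mitotic members are wide.

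The 95% interval of the log2 fold change included 0 for 44 of 46 members. For 17 of 46 it reached a 2-fold lower level, and for 12 of 46 a 2-fold higher level, so that 3 tumors per genotype did not show for these genes whether the genotypes differed by that much. The mitotic members made up 14 of the 17 and 9 of the 12. The median log2 fold change of the mitotic members depended on which tumor was left out: it was 0.31 without Prmt3f/f replicate 7, 0.10 without Prmt3LKO replicate 92, 0.044 without Prmt3LKO replicate 94, and -0.41 without Prmt3LKO replicate 93.

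Per length, in the FPKM deposited by the authors (fragments scaled by the length of the gene and the depth of the tumor), mean levels over the 6 tumors ran from 0.128 for Cdc6 to 5.90 for Pcna. Ccnb2 had the highest mean level of the mitotic members, 4.80 FPKM, and the median was 0.830 FPKM for mitotic and 1.88 FPKM for replication members. The length that count and FPKM imply was 0.730 to 4.21 times that of the longest transcript in GENCODE M21, so the order of levels between genes rests on the lengths used there.

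Other genes of the same processes came in 4 lists, with 0 genes called in each. Of 21 tested genes of replication origins and the helicase, the median log2 fold change was -0.082, with 1 gene at an unadjusted p under 0.05. This was Ticrr, an origin firing factor, with 14, 12 and 17 counts in the Prmt3f/f tumors and 3, 4 and 2 counts in the Prmt3LKO tumors (log2 fold change -1.95, SE 0.51, edgeR adjusted p 0.592). The groups did not overlap, but the Prmt3LKO values lie at or near the floor of 3 counts. Clspn (claspin, of the replication checkpoint) was at 2.22, 1.35 and 1.16 CPM in the Prmt3f/f tumors and 0.914, 1.13 and 0.402 CPM in the Prmt3LKO tumors, without overlap (edgeR adjusted p 0.797). Of 31 genes of DNA polymerases, clamp loaders and chromatin assembly, 15 had negative and 16 positive log2 fold changes, with a median of 0.016. Pole4, a small subunit of DNA polymerase epsilon, was at 10.4, 10.5 and 11.99 CPM in the Prmt3f/f tumors and 13.1, 14.1 and 13.6 CPM in the Prmt3LKO tumors, without overlap. Rpa2, which coats single-stranded DNA, was at 8.96, 7.32 and 5.59 CPM in the Prmt3f/f tumors and 10.3, 10.8 and 8.85 CPM in the Prmt3LKO tumors. Both had an edgeR adjusted p of 0.774.

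Of 61 other tested spindle, kinetochore and cytokinesis genes the median log2 fold change was -0.12, with 37 negative and 24 positive values and 0 at an unadjusted p under 0.05. Replicates 7 and 93 both led their groups for 47 of these 61 genes (77.0%), beside 17.8% of all genes. The counts were 13 of 31 for the polymerase list, 6 of 21 for the origin list and 16 of 31 for the G1 list. Kif20b, a kinesin of cytokinesis, was at 4.15, 2.61 and 2.04 CPM in the Prmt3f/f tumors and 1.31, 2.26 and 1.81 CPM in the Prmt3LKO tumors, and Kif15, a spindle kinesin, at 1.89, 1.07 and 1.05 CPM in the Prmt3f/f tumors and 0.343, 0.812 and 0.955 CPM in the Prmt3LKO tumors. Their edgeR adjusted p-values were 0.807 and 0.812, and the groups did not overlap for Kif15.

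Of 31 G1 cyclins, kinases, inhibitors and pocket proteins, 19 had negative log2 fold changes and the median was -0.085. Cdk4, the partner of D-type cyclins in G1, was at 38.1, 33.4 and 30.03 CPM in the Prmt3f/f tumors and 26.1, 28.2 and 25.9 CPM in the Prmt3LKO tumors. The groups did not overlap, and the log2 fold change was -0.34 (SE 0.14, edgeR unadjusted p 0.044, adjusted p 0.745). Mybl2, which encodes B-Myb, was at 1.62, 0.980 and 0.668 CPM in the Prmt3f/f tumors and 0.400, 1.04 and 0.302 CPM in the Prmt3LKO tumors, with replicates 7 and 93 highest in their groups. Of the immune markers, 11 of 11 T and NK cell markers and 11 of 11 myeloid markers had negative log2 fold changes, 8 of each at an unadjusted p under 0.05. Of 8 B and plasma cell markers 7 were negative, 2 at an unadjusted p under 0.05. Over all 13892 genes tested, 6937 had negative log2 fold changes, and 4.37% were lower at an edgeR unadjusted p under 0.05. Markers of 1 cell type can vary together, so they are not independent observations. None of the immune markers reached an edgeR adjusted p under 0.05 (0 in each list). Their part in the lower values of Mcm4, Mcm6, Mcm7, E2f8 and Cdk4 was not tested.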

How the data were processed

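RNA-seq of 6 liver tumors was used, 3 per genotype, grouped by the genotype in the labels. Per the submitters' processing notes, reads were handled with bcl2fastq 2.19, HISAT2 2.0.4 and StringTie 1.3.0 and the build GRCm38; the counting tool, annotation and use of strand are not given in the sources used here. The authors deposited 1 table with whole-number counts, not normalized, and FPKM for each gene and tumor, and 0 of its 12 value columns were left unused. Of its 34745 genes, 14468 had no count in any tumor.

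Genes were filtered with filterByExpr (minimum count 10, minimum total count 15), scaled by TMM and fitted in edgeR 4.0.16 (R 4.3.3; glmQLFit and glmQLFTest), and p-values were adjusted by Benjamini-Hochberg over 13892 genes. CPM use the TMM-scaled library size, and log2 CPM a prior count of 2. In each tumor 3 counts, the floor used, equal 0.107 to 0.163 CPM. Intervals are 95% intervals of the fit. For single members an exact permutation test (two-sided, 6 tumors) was added. Lists are described by counts and medians. Alternatives were DESeq2 1.42.0, limma-voom (limma 3.58.1), library size alone, other filters, FPKM with a pseudocount of 1, and each tumor left out. The code was tested on simulated data. The members, the lists and the rule for named genes were chosen with earlier results of these data known. By that rule every member is named, and each further list gives its 2 genes of smallest p. Ncr1 among the markers was not tested, and Tf was not used.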

Additional observations from a re-analysis of the deposited data

How the results depend on the processing

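No paired analysis was made, since the labels pair no tumor of 1 genotype with a tumor of the other. The counts of members called (0) and at an unadjusted p under 0.05 (2, lower) were the same with DESeq2, limma-voom, library size alone and both other filters. With 1 tumor left out, the second count was 0 to 2 (0 without Prmt3f/f replicate 7, 2 without Prmt3f/f replicate 71, and 2 without Prmt3LKO replicate 94, where 1 was higher). No member passed an adjusted p of 0.05 under any alternative that gave one, and the smallest was 0.516. The median log2 fold change with 1 tumor left out was -0.41 to 0.31 for mitotic and -0.26 to -0.045 for replication members. It was -0.0077 for mitotic members with limma-voom and -0.036 with FPKM. Under all 12 alternatives 16 of 46 members kept their direction, among them Mcm4 (-0.79 to -0.44 with 1 tumor left out), Mcm6, Mcm7, E2f8 and Mki67, and 30 turned in at least 1. With 1 tumor left out, the log2 fold changes of these 30 ranged as follows: Cdt1 -0.24 to 0.12, Gins2 -0.23 to 0.54, Pcna -0.25 to 0.065, Tk1 -0.13 to 0.43, Ccne2 -0.36 to 0.0098, E2f1 -0.17 to 0.12, Top2a -0.46 to 0.20, Ccnb1 -0.34 to 0.67, Ccnb2 -0.67 to 0.047, Ccna2 -0.43 to 0.39, Cdk1 -0.44 to 0.28, Cdc20 -0.54 to 0.69, Cdca3 -0.44 to 0.56, Cdca8 -0.39 to 0.35, Aurkb -0.42 to 0.050, Plk1 -0.62 to 0.036, Bub1 -0.37 to 0.63, Bub1b -0.33 to 0.089, Birc5 -0.13 to 0.37, Kif11 -0.36 to 0.099, Kif20a -0.40 to 0.39, Nusap1 -0.74 to 0.073, Ube2c -0.49 to 0.61, Tpx2 -0.47 to 0.47, Cenpa -0.24 to 0.46, Cenpe -0.43 to 0.26, Cenpf -0.41 to 0.23, Foxm1 -0.98 to 0.41, Anln -0.14 to 0.32 and Melk -0.47 to 0.20. Apart from these, E2f1 turned to -0.023 with library size alone, -0.00076 without a filter, -0.0053 at a mean of at least 1 CPM and -0.0095 with FPKM. With limma-voom, Ccna2 turned to 0.0088, Cdca3 to 0.11, Kif20a to 0.037 and Cenpf to 0.046, and Cdca3 turned to 0.00067 with FPKM. The cause of these turns was not tested. There were 3 tumors per genotype, and the median SE over the members was 0.36 log2 units. Differences under 2-fold were not detectable for many members, and larger ones could also go uncalled. Prmt3 itself, at a log2 fold change of -1.55, had an edgeR adjusted p of 0.592. The lowest counts, 6 reads for E2f8 and 8 for Kif23 in Prmt3LKO replicate 92, limit those genes further.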

Other observations

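Some genes of hepatocyte function, picked after their values had been seen, were lowest in the tumor of each genotype where the mitotic genes were highest. Cps1, the first enzyme of the urea cycle, was at 958, 2164 and 2964 CPM in the Prmt3f/f tumors and 2815, 1156 and 3006 CPM in the Prmt3LKO tumors. Tat, which breaks down tyrosine, was at 355, 1271 and 1782 CPM in the Prmt3f/f tumors and 1749, 374 and 1938 CPM in the Prmt3LKO tumors. Cyp2e1, a cytochrome P450 that activates CCl4, was at 166, 1057 and 1330 CPM in the Prmt3f/f tumors and 1171, 244 and 1165 CPM in the Prmt3LKO tumors. Each was lowest in Prmt3f/f replicate 7 and Prmt3LKO replicate 93. The same held for Cyp7a1, the rate-limiting enzyme of bile acid synthesis, at 4.02, 32.1 and 30.3 CPM in the Prmt3f/f tumors and 32.2, 8.12 and 54.4 CPM in the Prmt3LKO tumors, and for Nr1i3, the xenobiotic receptor CAR, at 8.86, 40.96 and 53.7 CPM in the Prmt3f/f tumors and 40.5, 9.92 and 51.9 CPM in the Prmt3LKO tumors. The sum of the 9 hepatocyte markers, at 174053, 206246 and 142811 against 171592, 166140 and 161922 CPM, did not set these tumors apart, but Alb, the most abundant, makes up most of it. The mean log2 level of the 9 markers, relative to the mean of the 6 tumors, was -0.071, 0.018 and -0.11 against 0.13, -0.19 and 0.22. Prmt3LKO replicate 93 was the lowest of all, while Prmt3f/f replicate 7 lay above Prmt3f/f replicate 71. Of the 9 markers, 5 were highest among the Prmt3f/f tumors in replicate 7, and 1 was highest among the Prmt3LKO tumors in replicate 93. As the genes named first were chosen for their low values in these tumors, that pattern was not tested.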
